A study of Rattus norvegicus with 24 samples.

Results

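The genes of the acetylcholine receptors were followed through the nucleus accumbens (NAc) of young rats whose mothers or grandmothers had received oxycodone (oxy). They are the 5 muscarinic receptor genes Chrm1, Chrm2, Chrm3, Chrm4 and Chrm5 and the 5 nicotinic subunit genes Chrna3, Chrna4, Chrna5, Chrna7 and Chrnb2, chosen by gene name, which makes 10 of the 23950 genes in the deposited tables. The animals were Sprague Dawley rats at postnatal day 14 (P14), and NAc tissue cut with a brain matrix gave 1 RNA library per pup, with 4 pups from separate litters in each of 6 groups. In the IUO groups (in utero exposure) the F0 dam was gavaged with 10 mg/kg/day oxy for 5 days, then with doses rising by 0.5 mg/kg/day over 10 days to 15 mg/kg/day, and was kept on the drug from mating until her pups were weaned. The PNO dams (postnatal exposure) received 15 mg/kg/day only between parturition and weaning, and SAL is the saline control. F1 pups are the offspring of these dams and met the drug in utero or through milk. F2 pups are the offspring of F1 females bred with drug-naive males, and no F1 animal was itself dosed. Pups of either sex were taken at random, and sex is not given per library.

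Acetylcholine acts on muscarinic receptors, which signal through G proteins, and on nicotinic receptors, which are cation channels built of alpha and beta subunits. The products of Chrm1, Chrm3 and Chrm5 couple to Gq and phospholipase C, while those of Chrm2 and Chrm4 couple to Gi and lower adenylyl cyclase activity. In the striatum, including the NAc, cholinergic interneurons release acetylcholine, the projection neurons carry mainly the products of Chrm1 and Chrm4, and many of the nicotinic receptors sit on terminals whose cell bodies, and so whose mRNA, lie elsewhere. Chrna3 and Chrnb4 are best known from the medial habenula, a small nucleus that adjoins the thalamus, and Chrna4 with Chrnb2 forms the most widespread nicotinic receptor of the brain, with high levels in the thalamus.

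Chrna5, Chrna3 and Chrnb4 lie side by side on rat chromosome 8. Their promoter windows, from 250 bases before to 50 bases after the start of the gene (RefSeq, build GRCr8), are shown because Chrna3 and Chrnb4 moved together in the F1 PNO libraries and the neighbouring Chrna5 did not pass the test there; Chrnb4 encodes the beta subunit that pairs with the product of Chrna3. Capitals mark the GC box GGGCGG, or CCGCCC where it lies on the opposite strand.
Chrna5 (chr8:64265629-64265928, plus strand): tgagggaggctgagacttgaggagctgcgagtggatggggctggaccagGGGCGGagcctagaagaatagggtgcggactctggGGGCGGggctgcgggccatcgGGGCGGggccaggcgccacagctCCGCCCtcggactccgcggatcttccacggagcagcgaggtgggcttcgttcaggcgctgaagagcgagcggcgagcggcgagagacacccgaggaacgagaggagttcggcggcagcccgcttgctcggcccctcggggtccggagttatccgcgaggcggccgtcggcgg
Chrna3 (chr8:64311202-64311501, minus strand): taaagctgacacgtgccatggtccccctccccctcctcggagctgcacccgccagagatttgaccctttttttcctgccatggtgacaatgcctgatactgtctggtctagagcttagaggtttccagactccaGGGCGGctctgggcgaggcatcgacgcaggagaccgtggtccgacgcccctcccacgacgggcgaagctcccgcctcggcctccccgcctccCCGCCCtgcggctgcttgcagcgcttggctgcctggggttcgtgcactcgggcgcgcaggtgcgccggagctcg
Chrnb4 (chr8:64333060-64333359, minus strand): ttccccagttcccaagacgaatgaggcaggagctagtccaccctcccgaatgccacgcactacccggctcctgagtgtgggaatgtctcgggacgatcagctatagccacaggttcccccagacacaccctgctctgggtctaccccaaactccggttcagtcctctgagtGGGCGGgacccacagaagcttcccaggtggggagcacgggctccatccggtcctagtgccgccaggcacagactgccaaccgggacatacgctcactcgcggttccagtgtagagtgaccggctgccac
The window of Chrna5 held 4 GC boxes, that of Chrna3 held 2 and that of Chrnb4 held 1. Such a box was present in 33.1% of the 33469 rat promoter windows and in 8 of the 9 receptor genes with a window, all but Chrm1. The letters TATAAA, searched on both strands, were in none of the 9 and in 14.2% of all windows.

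The NAc label was checked against marker genes. The 10 striatal projection neuron genes (Drd1, Drd2, Ppp1r1b and others) were above 0 in every library, with a summed level of 391 to 1273 FPKM (fragments per kilobase of transcript, scaled to library size), and so were the 7 genes of cholinergic interneurons (15.6 to 50.5). Genes of the thalamus (19.6 to 304 FPKM in sum) and of the cortex (449 to 1564) were also present and varied between libraries. Genes of the hypothalamus (5.49 to 832 FPKM in sum) and of the choroid plexus (5 to 12290) varied more widely. F2 PNO replicate 1 and F2 IUO replicate 4 stood apart: in them long genes were lower relative to short genes than elsewhere (-0.65 and -0.64 on the log2 scale, other libraries -0.35 to 0.24), and their median Spearman correlation with the other libraries was 0.916 and 0.936 against at least 0.949. Values in F2 are therefore also given without them where this ended a call or moved the value strongly. In whole tissue, fewer cells of a type and less RNA per cell cannot be told apart. In RefSeq, Chrm5 overlaps Aven, Chrm4 overlaps Mdk, Chrna4 overlaps Col20a1, and Chrna3 shares a long noncoding RNA with Chrnb4. Whether reads were assigned by strand is not given in the sources used here, so these values may hold reads of the partner gene.

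The muscarinic genes were dominated by Chrm1 and Chrm4, and the nicotinic genes by Chrna4 and Chrnb2. Over the 24 libraries the median levels were 26.1 FPKM for Chrm1, 17.4 for Chrna4, 16.3 for Chrnb2, 14.7 for Chrm4 and 6.56 for Chrm3, all per transcript length. The other genes were low, with medians of 2.11 FPKM for Chrna3, 1.63 for Chrm2, 1.52 for Chrna7, 1.11 for Chrna5 and 0.62 for Chrm5. Within libraries the order of Chrm1, Chrna4, Chrnb2 and Chrm4 was not fixed: Chrm1 exceeded Chrna4 in 18 of 24 libraries, Chrna4 exceeded Chrnb2 in 14 and Chrnb2 exceeded Chrm4 in 14. The step below them was clear, as Chrm4 exceeded Chrm3 in 24 of 24 libraries and Chrm3 exceeded Chrna3 in 23. Chrm2 and Chrna7 (higher in 14 of 24) and Chrna7 and Chrna5 (12 of 24) did not separate. Chrm1 and Chrm4 together made up 72.1 to 88.5% of the summed muscarinic level, and Chrna4 and Chrnb2 made up 77.9 to 91.1% of the nicotinic level of the 5 subunits. The coefficient of variation over the libraries was lowest for Chrm3 (19.9%) and highest for Chrna3 (73.0%).

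**Figure D1:**
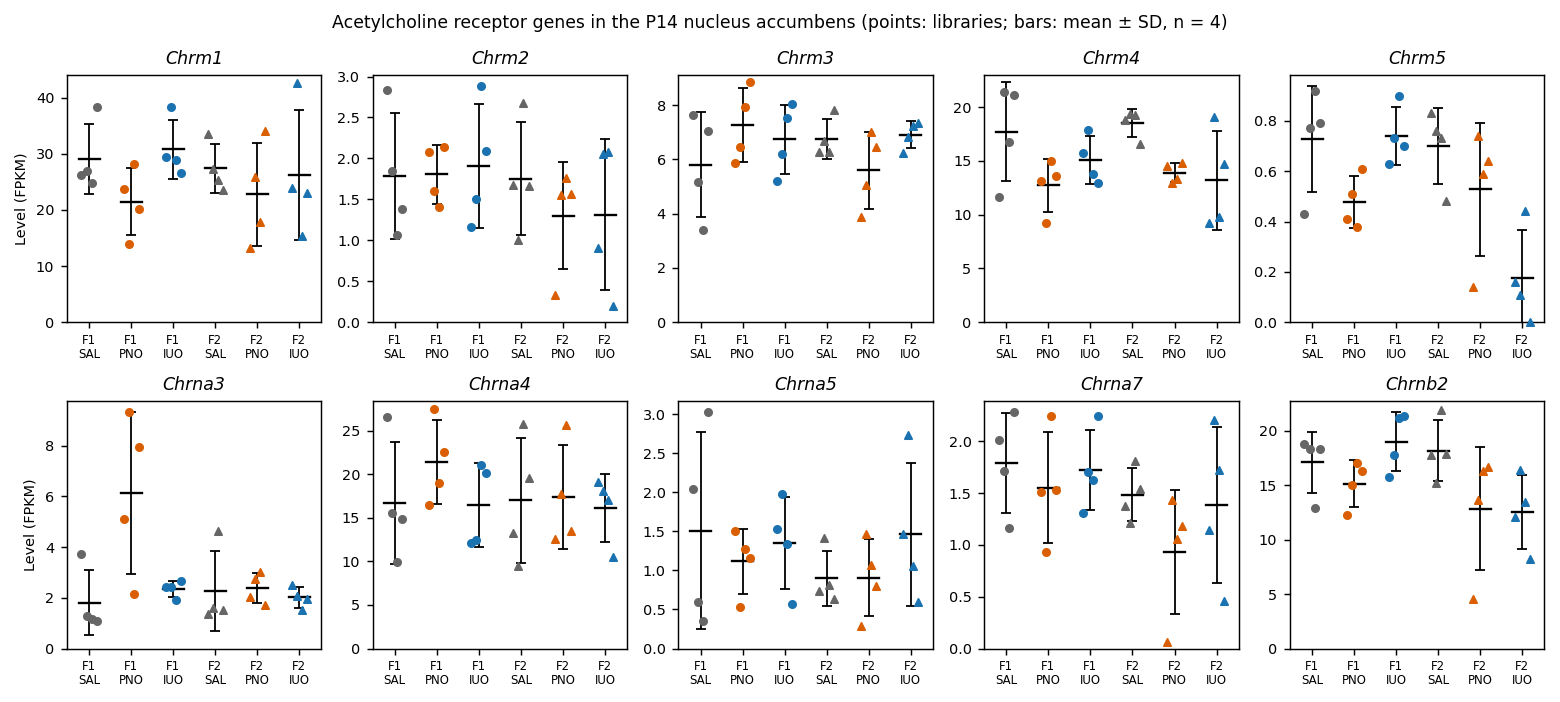
Level of each receptor gene in FPKM (y axis, linear from 0, a separate scale per gene) in the 6 groups (x axis). Points are single libraries, F1 as circles and F2 as triangles, and bars give the mean ± SD of 4 libraries. Chrna3 reaches 9.32 FPKM in F1 PNO, Chrm5 lies lowest in F2 IUO, and most other groups overlap.

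The comparisons ask whether either maternal exposure altered the receptor genes in the pups and whether the alteration was seen again in the next generation. With limma on log2(FPKM + 0.1), few receptor genes differed at an unadjusted p under 0.05, and none passed after Benjamini-Hochberg adjustment over all genes tested (smallest adjusted p = 0.211). In F1, none of the 10 genes differed between IUO and SAL, where 3.91% of all genes did; 1 of 10 differed between PNO and SAL, where 13.9% of all genes did; and 2 of 10 differed between IUO and PNO, where 16.5% did. In F2, 3 of 10 differed between IUO and SAL against 8.49% of all genes, 1 of 10 between PNO and SAL against 10.8%, and none between IUO and PNO against 7.07%. Between generations, none of 10 differed in the SAL groups (8.48% of all genes), 2 of 10 in the IUO groups (15.0%) and 1 of 10 in the PNO groups (4.76%). After adjustment the share of all genes called was 0.133% for F1 IUO against F1 PNO, 0.00576% for F2 PNO against F2 SAL, 0.0343% between the SAL groups and 0.0288% between the PNO groups, and 0% in the other comparisons. In 10 of these 90 gene by comparison pairs the unadjusted p was under 0.05, and below a gene is called higher, lower or past the test by that rule, with its adjusted p beside it. Comparisons within a generation share their SAL, PNO or IUO libraries and so are not independent of each other. The median log2 fold change of the 10 genes was -0.20 in F2 IUO and -0.38 in F2 PNO against F2 SAL, beside -0.08 over all genes in each.

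**Figure D2:**
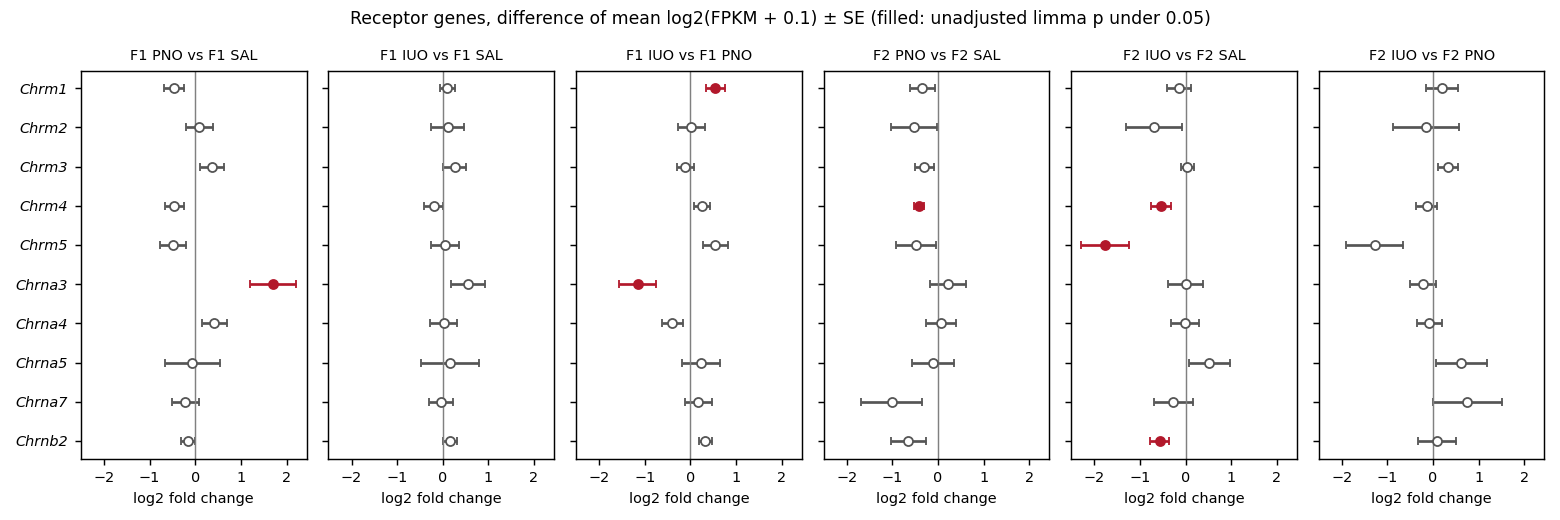
Difference of mean log2(FPKM + 0.1) between groups (x axis, ± SE) for the 10 receptor genes (y axis) in the 6 comparisons within a generation. Filled points have an unadjusted limma p under 0.05: Chrna3 in F1 PNO against SAL and in F1 IUO against PNO, Chrm1 in F1 IUO against PNO, Chrm4 in F2 PNO against SAL, and Chrm4, Chrm5 and Chrnb2 in F2 IUO against SAL.

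Among the Gq-coupled receptors, Chrm5 was lower in F2 IUO than in F2 SAL and in F1 IUO. Its product is the rarest muscarinic receptor and is best known from midbrain dopamine neurons. In F2 SAL its levels were 0.83, 0.76, 0.73 and 0.48 FPKM, and in F2 IUO they were 0.16, 0.11 and 0.44 FPKM with the library of replicate 4 listed at 0. All F2 IUO libraries lay below all F2 SAL libraries. The log2 fold change was -1.76 (SE 0.52, limma adjusted p = 0.485), and the exact permutation test of 4 against 4 libraries gave p = 0.0286, the smallest it can give. Because the gene is near the floor, the size depends on the pseudocount, and with 1 FPKM in place of 0.1 it was -0.54. F1 IUO had 0.63, 0.73, 0.90 and 0.70 FPKM, again all above F2 IUO (log2 fold change F2 over F1 -1.84, SE 0.54, adjusted p = 0.236). Without F2 IUO replicate 4, which is low in long genes, the differences were -1.35 against F2 SAL and -1.43 against F1 IUO, both with an unadjusted p still under 0.05. With the long-gene level as a covariate, which differs between the 2 generations of IUO, the difference from F1 IUO was -0.59 and did not pass, while that from F2 SAL was -1.31 and did. In F1 PNO Chrm5 ranged from 0.38 to 0.61 FPKM, below every F1 IUO library but without passing the limma test (exact permutation p = 0.0286). The overlapping gene Aven ranged from 5.75 to 12.3 FPKM in F2 IUO and from 8.82 to 11.8 in F2 SAL. The genes most like Chrm5 by Pearson r over the 24 libraries were Uprt (r = 0.912, Spearman rho = 0.724) and Fat1 (r = 0.900, rho = 0.703).

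Chrm1, the main muscarinic receptor of projection neurons, was lower in F1 PNO than in F1 IUO. Its levels were 23.66, 13.98, 28.11 and 20.11 FPKM in F1 PNO and 29.42, 38.38, 28.83 and 26.52 in F1 IUO. Only PNO replicate 3 reached into the IUO range. The log2 fold change of IUO over PNO was 0.55 (SE 0.21, limma adjusted p = 0.239), with an exact permutation p of 0.0571. The call was lost with upper-quartile rescaling (0.43), with all 24 libraries in a single fit, and without PNO replicate 2 (0.36), PNO replicate 4 (0.53) or IUO replicate 2 (0.44). With the thalamus marker level as a covariate the difference was 0.16 and did not pass. The striatal projection neuron genes moved beside Chrm1. In the F1 IUO group compared with PNO 7 of 10 were higher and none lower, where 16.5% of all genes were called. The median log2 fold change of the list was 0.64, beside 0.03 over all genes. Its summed level was 807 to 1120 FPKM in IUO and 498 to 721 in PNO. Over the 24 libraries Chrm1 was related to the mean log2 level of this list (r = 0.535, rho = 0.497, adjusted permutation p = 0.042 for r and 0.117 for rho), with r = 0.512 without the 2 farthest libraries and 0.44 within groups. For the cortex list r was 0.457 and rho 0.481 (adjusted permutation p = 0.122 for r and 0.117 for rho). With that list r was 0.381 without the 2 farthest libraries and 0.651 within groups. In F1 IUO against PNO 1 of the 6 cortex genes was higher and none lower (median 0.07). Of the 7 hypothalamus genes 5 were higher and none lower there (median 3.39), and Chrm1 had r = 0.11 with their list. The part of striatal, cortical and hypothalamic cells in the difference was not tested. Against F1 SAL (26.19, 26.92, 24.72 and 38.29 FPKM), F1 PNO differed by -0.46 without passing the test. The median of the striatal list was -0.53 there, with 1 of 10 lower, where 13.9% of all genes were called. Synpo (r = 0.931) and Rasgef1a (r = 0.879) had the patterns most like Chrm1. Chrm3, the third Gq-coupled receptor, ranged only from 3.39 to 8.85 FPKM over all libraries and passed no test. Its closest genes by r were Olfm1 (r = 0.831, rho = 0.602) and Galnt9 (r = 0.823, rho = 0.689).

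Of the Gi-coupled receptors, Chrm4, which marks mainly the projection neurons that also carry the dopamine receptor Drd1, was lower in both F2 exposure groups than in F2 SAL. F2 SAL had 18.78, 19.39, 19.24 and 16.60 FPKM. F2 PNO had 14.55, 12.96, 13.30 and 14.78 FPKM, and F2 IUO had 9.22, 19.05, 9.79 and 14.68. Every F2 PNO library lay below every F2 SAL library, while IUO replicate 2 fell within the SAL range. The log2 fold changes were -0.41 for PNO (SE 0.11, limma adjusted p = 0.372) and -0.55 for IUO (SE 0.22, adjusted p = 0.567). The exact permutation p was 0.0286 for PNO and 0.0857 for IUO. Without the library low in long genes the values were -0.43 and -0.62, but the IUO call was lost when any of SAL replicates 1, 2 or 3 or IUO replicates 1 or 3 was left out (-0.40 to -0.54). With all 24 libraries in a single fit the PNO call was lost. In F1 the levels were 11.61, 21.44, 16.71 and 21.12 FPKM in SAL, 9.25 to 14.94 in PNO and 12.92 to 17.87 in IUO, and no comparison passed. The difference between generations was not past the test for Chrm4 in either exposure. The overlapping gene Mdk stood at 219.70 FPKM in F2 IUO replicate 1, the library lowest in Chrm4, and at 23.35 to 35.99 in the other F2 IUO libraries. Mdk ranged from 27.18 to 32.88 FPKM in F2 SAL and from 24.50 to 121.12 in F2 PNO. Elsewhere Mdk was highest in F1 SAL replicate 1 (102.67), F1 PNO replicate 3 (86.49), F1 IUO replicate 3 (148.60) and F2 PNO replicate 4 (121.12). In these Chrm4 was 11.61, 14.94, 13.76 and 14.78 FPKM, and the choroid plexus gene Ttr was 5121.24, 3742.30, 8011.10 and 6696.27. Ttr was 12103.13 FPKM in F2 IUO replicate 1. The part of choroid plexus cells in the Mdk levels was not tested.

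Striatal projection neuron genes moved beside Chrm4. In F2 IUO 3 of the 10 were lower than in F2 SAL and none higher (8.49% of all genes were called there), with a median log2 fold change of -0.51 beside -0.08 over all genes, and their summed level ranged from 391 to 942 FPKM against 746 to 979 in SAL. Cortex genes moved the other way in the same comparison, with 5 of 6 higher in F2 IUO and none lower (median 0.82), and a summed level of 839.7 to 1564 FPKM against 550.5 to 1108 in F2 SAL. In F2 PNO none of the 10 striatal genes passed the test (699 to 996 FPKM, 10.8% of all genes called), although Chrm4 was lower there. Over the 24 libraries Chrm4 rose with the mean log2 level of this list (Pearson r = 0.783, Spearman rho = 0.738, adjusted permutation p = 0.0006), and r was 0.675 without the 2 farthest libraries and 0.751 within groups. The part of striatal and cortical cells in the difference was not tested. Wfs1 and Sh2d5, each with r = 0.848, were the genes most like Chrm4. Chrm2, the other Gi-coupled receptor, which serves as an autoreceptor on cholinergic neurons, ranged from 0.20 to 2.89 FPKM and passed no test. Its lowest levels were in the libraries low in long genes, 0.20 in F2 IUO replicate 4 and 0.33 in F2 PNO replicate 1. The genes most like it by r were Trappc10 (r = 0.925, rho = 0.699) and Slc8a1 (r = 0.912, rho = 0.708).

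Among the nicotinic subunits, Chrna3 was highest in F1 PNO. Its levels were 5.11, 9.32, 2.13 and 7.96 FPKM there, against 3.74, 1.28, 1.16 and 1.07 in F1 SAL and 2.43, 2.44, 1.92 and 2.65 in F1 IUO. In 3 of the 4 PNO libraries Chrna3 was above all SAL and IUO libraries, and PNO replicate 3 was not. The log2 fold change of PNO over SAL was 1.70 (SE 0.51, limma adjusted p = 0.245, exact permutation p = 0.0571), a ratio of means of 3.38. That of IUO over PNO was -1.16 (SE 0.40, limma adjusted p = 0.211), and the call was lost without PNO replicate 2 (-0.89) or PNO replicate 4 (-0.97). The rise was not seen in F2, where PNO had 2.05, 2.76, 3.0 and 1.73 FPKM and SAL 1.36 to 4.65 (log2 fold change 0.22, adjusted p = 0.852). F2 PNO was lower than F1 PNO (log2 fold change -1.17, SE 0.43, adjusted p = 0.948), and this call was lost without F1 PNO replicates 2 or 4 or F2 PNO replicate 4 (-0.90 to -1.03).

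The neighbour Chrnb4, whose promoter is printed above, followed Chrna3. The F1 PNO libraries had 2.60, 4.79, 1.82 and 5.15 FPKM. The SAL libraries of that generation had 2.31, 1.39, 0.75 and 0.61 FPKM, and the IUO libraries had 1.06, 0.54, 0.45 and 0.75. No PNO library overlapped the IUO group, and SAL replicate 1 alone reached into the PNO range. The log2 fold change was 1.49 for PNO over SAL (SE 0.45, adjusted p = 0.245) and -2.15 for IUO over PNO (SE 0.38, adjusted p = 0.0782). With the thalamus level as a covariate the difference of PNO over SAL was 0.46 and the call was lost. F2 PNO, at 0.38 to 1.13 FPKM, was lower than F1 PNO (log2 fold change -2.27, SE 0.42, adjusted p = 0.487). Chrna5, the third gene of the cluster, whose product joins other subunits as an accessory, gave no such difference: it ranged from 0.53 to 1.51 FPKM in F1 PNO and from 0.35 to 3.03 in F1 SAL. The genes most like Chrna3 were Necab1 (r = 0.808) and Rd3l (r = 0.803), and those most like Chrna5 were St3gal1 (r = 0.812) and Etl4 (r = 0.798). Over the 24 libraries Chrna5 rose with the cortex list (r = 0.725, rho = 0.595, adjusted permutation p = 0.00112 for r and 0.0318 for rho). There r was 0.558 without the 2 farthest libraries and 0.783 within groups.

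Genes of the thalamus and the medial habenula were higher in the same F1 PNO libraries. Of 7 thalamus genes, 5 passed the test upward and none downward in F1 PNO against F1 SAL, where 13.9% of all genes were called. In F1 IUO against F1 PNO 4 passed downward, where 16.5% of all genes were called. The summed level of the thalamus genes was 118 to 304 FPKM in F1 PNO, 19.6 to 153 in F1 SAL and 28.0 to 142 in F1 IUO. Of the habenula genes, 3 of the 6 tested were higher in PNO than in SAL (13.9% of all genes were called). The sum of this list was 13.9 to 23.6 FPKM in PNO, 8.93 to 12.8 in SAL and 6.88 to 12.3 in IUO. The habenula gene Pou4f1 was listed at 0 in 12 of the 24 libraries, and Irx2 and Gpr151 at 0 in 2. With the thalamus level as a covariate the Chrna3 difference was 0.75 for PNO over SAL, -0.70 for IUO over PNO and -0.55 for F2 over F1 PNO, and none of the 3 calls held. The control libraries with the most Chrna3, F1 SAL replicate 1 (3.74 FPKM) and F2 SAL replicate 3 (4.65), were also those with the highest thalamus level of their groups (mean log2 level 3.47 and 3.73). Over the 24 libraries Chrna3 rose with the thalamus list (r = 0.677, rho = 0.677, adjusted permutation p = 0.00257). It was still related without the 2 farthest libraries (r = 0.638) and within groups (r = 0.576). With the habenula list r was 0.742 and rho 0.530 (adjusted permutation p = 0.0021 for r and 0.079 for rho). There r was 0.499 without the 2 farthest libraries and 0.668 within groups. The part of thalamus and habenula cells in the differences of Chrna3 and Chrnb4 was not tested.

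**Figure D3:**
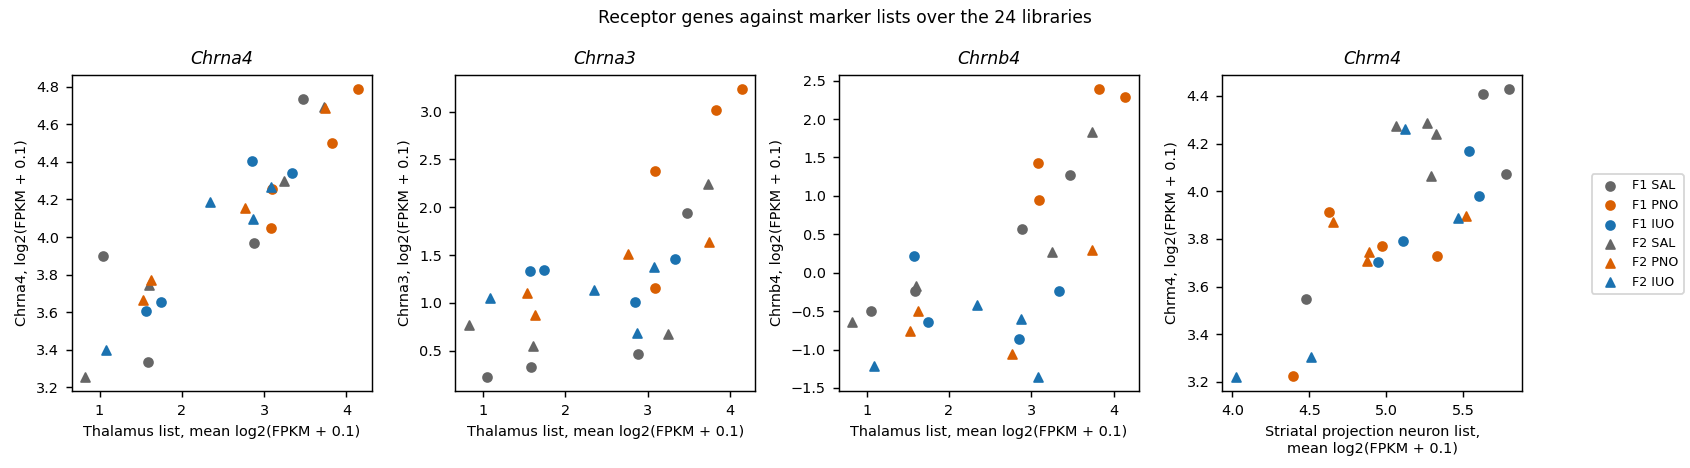
Level of Chrna4, Chrna3 and Chrnb4 against the mean level of 7 thalamus genes, and of Chrm4 against that of 10 striatal projection neuron genes, all as log2(FPKM + 0.1), with 1 point per library. Chrna4 rises with the thalamus list (r = 0.922), Chrna3 is highest in the F1 PNO libraries at its right end, and Chrm4 rises with the striatal list (r = 0.783).

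Chrna4, the alpha subunit of the common brain receptor, tracked the thalamus list most closely of the 10 genes (r = 0.922, rho = 0.903, adjusted permutation p = 0.00045) and kept this within groups (r = 0.919). It also rose with the habenula list (r = 0.777, rho = 0.794, adjusted permutation p = 0.00045, r = 0.814 within groups). Its level went from 9.44 to 27.54 FPKM over the libraries, with F1 PNO at 16.45, 27.54, 19.01 and 22.55 and F1 SAL at 26.58, 15.55, 9.99 and 14.84. The groups overlapped throughout, and no comparison passed the test. Chrna4 ran against the striatal projection neuron list (r = -0.60), and the genes most like it were Synpo2 (r = 0.913) and Ntng1 (r = 0.902).

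Chrnb2, the beta subunit that pairs with Chrna4, was lower in F2 IUO than in F2 SAL and in F1 IUO. F2 IUO had 12.04, 16.37, 13.49 and 8.20 FPKM, F2 SAL had 17.77, 15.18, 21.88 and 17.87, and F1 IUO had 15.76, 17.75, 21.18 and 21.35. F2 IUO replicate 2 overlapped both groups, and replicate 4, which is low in long genes, was the lowest. The log2 fold change against F2 SAL was -0.56 (SE 0.21, limma adjusted p = 0.559), and against F1 IUO it was -0.63 (SE 0.21, limma adjusted p = 0.246). Without replicate 4 these were -0.38 and -0.44, both still with an unadjusted p under 0.05, and the call against F2 SAL was lost without F2 SAL replicate 3 (-0.47) and with all libraries in a single fit. With the long-gene level as a covariate the difference between generations of IUO was -0.02 and did not pass, and that against F2 SAL was -0.29 and did. In F2 PNO the levels were 4.59, 13.67, 16.31 and 16.71 FPKM, where the lowest was again the library low in long genes. Tln2 (r = 0.962) and Tub (r = 0.961) were the genes most like Chrnb2.

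Chrna7, which encodes the subunit of the homomeric alpha receptors, ranged from 0.06 to 2.28 FPKM, passed no test, and had its lowest values in F2 PNO replicate 1 (0.06) and F2 IUO replicate 4 (0.46). It resembled Trim9 (r = 0.965, rho = 0.869) and Mtpn (r = 0.948, rho = 0.751). Of the 45 pairs of receptor genes, 14 were related over the libraries at an adjusted permutation p under 0.05, and 13 of these were positive. The closest was Chrna7 with Chrnb2 (r = 0.898, rho = 0.716, adjusted permutation p = 0.00045), followed by Chrm2 with Chrnb2 (r = 0.823). Without the 2 libraries farthest in the gene named ahead, these fell to r = 0.526 and r = 0.561, and only 3 of the 45 pairs then passed. Each of Chrm2 (r = 0.824), Chrnb2 (0.762), Chrm5 (0.739) and Chrna7 (0.735) was also related to the long-gene level, and without the 2 farthest libraries these were 0.483, 0.337, 0.432 and 0.242. By rank the relations were weaker (rho = 0.441, 0.431, 0.382 and 0.384) and none passed (adjusted permutation p for rho 0.191 to 0.269). Chrm2 was related to the thalamus list (r = 0.595, rho = 0.654, adjusted permutation p = 0.00926 for rho) and to the habenula list (r = 0.563, rho = 0.650). Without the 2 farthest libraries r was 0.622 and 0.663. The negative pair was Chrm4 with Chrna3 (r = -0.499, rho = -0.578, adjusted permutation p = 0.0425), with r = -0.389 without the 2 farthest libraries. In the other pairs of abundant genes Chrm1 rose with Chrm4 (r = 0.616, and 0.608 without the 2 farthest libraries).

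**Figure D4:**
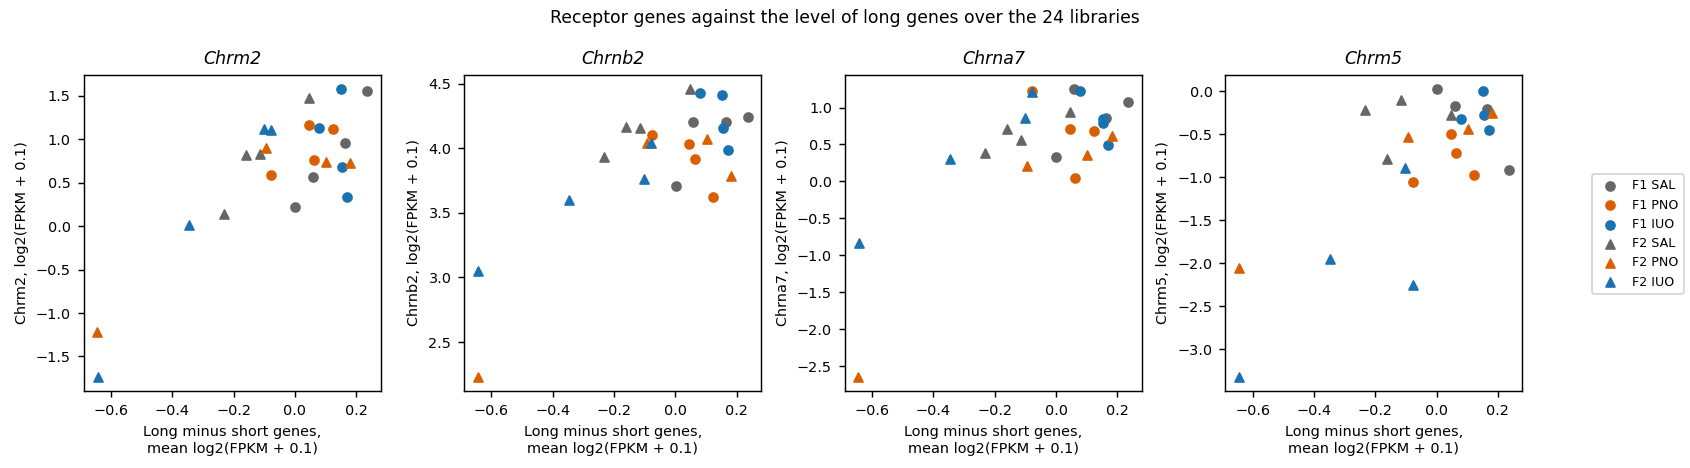
Level of Chrm2, Chrnb2, Chrna7 and Chrm5, as log2(FPKM + 0.1), against the long-gene level (long minus short genes, log2 scale), with 1 point per library. The x values are differences of medians, although the axis label reads mean. The libraries F2 PNO replicate 1 and F2 IUO replicate 4 lie far to the left (-0.65 and -0.64) and are the lowest or among the lowest for each gene.

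The effect of exposure was compared between generations by an interaction term over 16 libraries. For IUO against SAL the change in F2 minus that in F1 was -1.81 for Chrm5 (SE 0.59, adjusted p = 0.915) and -0.72 for Chrnb2 (SE 0.27, adjusted p = 0.915), which is 2 of 10 genes where 5.17% of all genes passed. For PNO against SAL it was -1.49 for Chrna3 (SE 0.69, adjusted p = 0.9998), or 1 of 10 against 3.90% of all genes, and for IUO against PNO it was -1.83 for Chrm5 (SE 0.68, adjusted p = 0.816), or 1 of 10 against 5.87%. No gene of any kind passed after adjustment, so the share called was 0% in all 3 interaction tests, and the adjusted p of these genes was at least 0.816 in limma. The Chrna3 term was lost under most other settings: with the thalamus level as a covariate (-0.89), without the libraries low in long genes (-1.43), with upper-quartile rescaling (-1.40), with no filter or with a replicate block, and when any of 10 of the 16 libraries was left out in turn (-1.92 to -1.09 over the 16).

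The effector list holds 14 G protein and effector genes, not all of them direct partners of muscarinic receptors. Of these, 5 were lower and 2 higher in F1 PNO compared with F1 SAL, where 13.9% of all genes were called. The lower ones included Gnal (log2 fold change -0.59, adjusted p = 0.233) and Adcy5 (the striatal adenylyl cyclase, -0.54, adjusted p = 0.282). Gnal encodes the striatal stimulatory G protein, which is neither Gq nor Gi. Plcb4 (0.89, adjusted p = 0.347) and Rgs4 (0.44, adjusted p = 0.308) were higher. In the same comparison 5 of 7 thalamus genes were higher. With their level as a covariate Plcb4 stood at -0.01, Rgs4 at 0.19 and Adcy5 at -0.24, all 3 no longer past the test. The part of thalamus cells in these differences was not tested. Plcb4 was 0.55 without F1 SAL replicate 4, and Rgs4 was 0.28 without F1 SAL replicate 3, and neither passed then. In F1 IUO against PNO 8 of 14 were higher and 2 lower (16.5% of all genes were called), led by Adcy5 (0.74, adjusted p = 0.0695) and Gna11 (a Gq subunit, 0.60, adjusted p = 0.123), beside the 7 of 10 striatal genes that were higher. The effector and striatal lists share Rgs9, which is counted as higher in both.

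In F2 IUO 3 of the 14 were lower than in F2 SAL (8.49% of all genes), among them Gnal (-0.72, adjusted p = 0.202), with all IUO libraries below all SAL libraries, and Adcy5 (-0.61, adjusted p = 0.501), beside 3 of 10 striatal genes lower. Without the library low in long genes Gnal was -0.76 and Adcy5 -0.61, and both passed. In F2 PNO only Adcy5 (-0.37, adjusted p = 0.452) was lower, where 10.8% of all genes were called, and without the library low in long genes it was -0.22 and did not pass. In F2 IUO against F1 IUO 6 of 14 were lower (15.0% of all genes), including Gnaq (-0.86, adjusted p = 0.25) and Plcb1 (-0.65, adjusted p = 0.304), beside 5 of 10 striatal genes. Gnaq had 7.57 FPKM in F2 IUO replicate 4 and 18.41 to 21.05 in the other F2 IUO libraries, against 24.05 to 32.82 in F1 IUO. Without that library the differences were -0.51 for Gnaq, which passed, and -0.47 for Plcb1, which did not, and with the long-gene level as a covariate both turned to the other sign (0.15 and 0.16) and did not pass. Both genes were also lower in F2 SAL than in F1 SAL (-0.365 for Gnaq and -0.402 for Plcb1). There 2 of 14 were lower and none higher (8.48% of all genes), and neither call was lost when any library was left out. In F2 against F1 PNO 2 of 14 were lower (4.76% of all genes), Rgs4 (-0.47) and Plcb4 (-0.49), and without the library low in long genes these were -0.28, which passed, and -0.42, which did not. No gene of this list passed in F1 IUO against F1 SAL. The median of the list was -0.23 in F1 PNO and -0.22 in F2 IUO against SAL, beside -0.05 and -0.08 over all genes.

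Few of the 7 genes that make, carry and split acetylcholine passed the test, although their median was below F2 SAL in both F2 exposure groups. None of the 7 passed in F1 PNO or F2 IUO against SAL, where 13.9% and 8.49% of all genes were called. In F2 PNO against SAL 1 passed, where 10.8% of all genes were called. The median log2 fold change was -0.58 in F2 IUO and -0.50 in F2 PNO against F2 SAL, beside -0.08 over all genes. F2 SAL itself had a median of 0.29 over F1 SAL, with no gene of the list past the test. The median of F2 over F1 was -0.52 in IUO and -0.16 in PNO. Slc18a3, the vesicular acetylcholine transporter, was lower in F2 PNO than in F2 SAL (3.88 against 7.59 FPKM on average, log2 fold change -0.92, adjusted p = 0.443), a call that was lost when any of 6 of the 8 libraries was left out. The markers of cholinergic interneurons, 3 of which (Chat, Slc18a3 and Slc5a7) are also in this list, moved beside it. In F2 PNO 2 of 7 markers were lower and none higher, where 10.8% of all genes were called. The markers had a median of -0.83 and a summed level of 15.9 to 32.6 FPKM against 23.9 to 50.5 in F2 SAL. Their part in the difference was not tested. Chat, the synthetic enzyme, stood higher in F1 IUO than F1 PNO (0.50, adjusted p = 0.24) and lower in F2 than in F1 PNO (-0.67, adjusted p = 0.948). Colq, the collagen tail of acetylcholinesterase, was higher in F2 than in F1 PNO (1.09, adjusted p = 0.948), and Prima1, which anchors that enzyme in membranes, was lower in F2 than in F1 IUO (-0.61, adjusted p = 0.326). Without the library low in long genes the F2 against F1 PNO differences of Chat (-0.61) and Colq (0.88) did not pass. Prima1 was -0.34 without F2 IUO replicate 1, and its call was lost when any of 6 of the 8 libraries was left out. The call of Chat in F1 IUO against PNO was lost when any of 4 of the 8 was left out. Of the 7 chaperones and Ly6 proteins that bind nicotinic receptors, Ly6h lowers their surface level. It was lower in all F2 PNO libraries than in F2 SAL (136 against 199 FPKM on average, -0.55, adjusted p = 0.187). It was the single member of the list to pass there, where 10.8% of all genes were called. Lypd6b was lower in F1 IUO than in F1 PNO (-0.61, adjusted p = 0.166) and in F2 than in F1 PNO (-0.73, adjusted p = 0.948). Lypd1 stood higher in F1 IUO than F1 PNO (0.25, adjusted p = 0.236). The F2 against F1 PNO call of Lypd6b was lost when any of 6 of the 8 libraries was left out, and that of Lypd1 with any of 4. Among the other nicotinic subunits, of which 4 to 7 passed the filter on low values, Chrnb4 was the main one to differ. It was also lower in F2 IUO than in F2 SAL (0.29 to 0.65 against 0.54 to 3.45 FPKM, -1.22, adjusted p = 0.586). This call was lost when any of 5 of the 8 libraries was left out, and the value was -0.71 without F2 SAL replicate 3, the highest F2 SAL library in Chrnb4 and in thalamus genes. Chrna1 exceeded F1 SAL in F1 PNO at 0.23 against 0.0525 FPKM on average (adjusted p = 0.326), a call lost with the thalamus covariate, and Chrnb3 was lower in F2 than in F1 PNO at 0.09 against 0.295 FPKM (adjusted p = 0.948), which did not pass without the library low in long genes.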

How the data were processed

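RNA of P14 rat NAc was sequenced in 24 libraries, 4 per group. Per the labels and the study's methods, the authors merged the transcriptomes of all samples and deposited 1 FPKM value per gene and library from StringTie, rounded to 0.01, while HISAT2, SAMtools and edgeR are named in the submitters' processing notes. Versions, genome build and strand setting are not given in the sources used here. FPKM hold no counts, so depth is unknown, and counting intervals were not computed. The sum per library was 535866 to 766781 FPKM, and 4782 to 7532 genes were listed at 0.

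Each comparison was fitted on log2(FPKM + 0.1) with limma 3.58.1 (lmFit and eBayes with trend, R 4.3.3) for its 8 libraries, over genes with at least 0.1 FPKM in 4 or more of them (8 of 16 for interactions), with Benjamini-Hochberg adjustment over all genes tested. All 10 receptor genes passed this filter in each fit. Fold changes are on this log2 scale and understate the change of low genes. The study tested pairs of groups with edgeR, which needs counts and was not used here. Single genes also had an exact two-sided permutation test of 4 against 4 libraries. Correlations used 100000 permutations, adjusted over 45 receptor pairs and over 90 relations of receptor genes with 8 marker lists and the long-gene level. For that level, each gene's log2 value was first taken as its deviation from the gene's median over all libraries. The median deviation in the shortest quartile of RefSeq gene length was then subtracted from that in the longest quartile. Lengths were available for 11539 of 13498 genes. Choroid plexus genes fell into separate clusters of libraries and were given no correlation. The fit was tested on simulated data. Scripts ran in Python 3.11.15.

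The 10 genes were given by name. The pathway and marker lists, and the rules for named genes (genes of the pathway lists with an unadjusted p under 0.05 where a receptor gene also had 1, and the 2 genes with the highest Pearson r to each receptor gene among 11963 named genes with a mean of at least 1 FPKM), were chosen with earlier results of these data known. The values of 1 gene of the effector list are not reported here. The replicate numbers of the titles did not pair the samples. Alternatives covered pseudocount, filters, upper-quartile rescaling, a single fit of all 24 libraries, a replicate block, a thalamus covariate and leaving out each library. A long-gene covariate and leaving out the 2 libraries low in long genes were chosen after seeing the data, and so were the alternatives of the interaction tests and of the pathway genes. Sequences are from RefSeq (GRCr8), and 9 of the 10 receptor genes had a promoter window.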

Additional observations from a re-analysis of the deposited data

Results flagged for a closer look

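In 5 of the 60 sets of 4 libraries (10 genes in 6 groups) a single library lay far from the other 3, where chance alone gives about 1 in 20. Chrm1 was 38.29 FPKM in F1 SAL replicate 4, against 24.72 to 26.92 in the other F1 SAL libraries. Chrm2 was 0.33 FPKM in F2 PNO replicate 1, a library low in long genes, against 1.55 to 1.76. Chrna3 was 3.74 FPKM in F1 SAL replicate 1, against 1.07 to 1.28, and 4.65 in F2 SAL replicate 3, against 1.36 to 1.61. Chrnb2 was 12.95 FPKM in F1 SAL replicate 3, against 18.30 to 18.77. Without F1 SAL replicate 1 the Chrna3 difference of F1 PNO over F1 SAL was 2.10, against 1.70 with it.

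The change with exposure differed between F2 and F1, by the interaction term and before adjustment, in 4 cases. F2 minus F1 was -1.81 for Chrm5 and -0.72 for Chrnb2 under IUO against SAL, -1.49 for Chrna3 under PNO against SAL, and -1.83 for Chrm5 under IUO against PNO. None passed after adjustment over all genes in limma.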

How the results depend on the processing

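No direction reversed in the 14 single differences of receptor genes over 259 alternatives. In 219 the unadjusted p stayed under 0.05 and in 40 it did not. Counts below are receptor genes of 10 with an unadjusted limma p under 0.05.

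With the thalamus covariate the counts were 0 in F1 PNO against SAL (1 before), 1 in F1 IUO against PNO (2 before) and 0 in F2 against F1 PNO (1 before). With all 24 libraries in a single fit they were 2, 1 and, for F2 IUO against PNO, 1 (0 before). The long-gene covariate gave 4 in F1 PNO against SAL, 3 in F2 PNO against SAL (1 before), 2 in F2 IUO against PNO, 4 in F2 against F1 SAL (0 before) and 0 in F2 against F1 IUO (2 before). Without the libraries low in long genes F2 IUO against PNO gave 1. With at least 1 FPKM, where Chrm5 drops out, F2 against F1 IUO gave 1. For the differences between generations, IUO against SAL gave 1 at that filter (2 before). PNO against SAL (1 before) gave 0 with no filter, upper-quartile rescaling, the thalamus covariate or without the libraries low in long genes, and 5 with the long-gene covariate. IUO against PNO (1 before) gave 0 at 1 FPKM, and 2 without the libraries low in long genes or with the long-gene covariate. Apart from the changed filter, the cause was not tested.

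Leaving out each library gave 0 to 2 in F1 IUO against SAL (2 without SAL replicate 1), 1 to 4 in F1 PNO against SAL (4 without SAL replicate 1), 0 to 3 in F1 IUO against PNO (0 without PNO replicate 2 or 4), 1 to 3 in F2 IUO against SAL (1 without SAL replicate 3), 1 to 2 in F2 PNO against SAL, 0 to 1 in F2 IUO against PNO and 0 to 2 in F2 against F1 PNO. For the differences between generations it gave 0 to 2 for PNO against SAL and 1 to 2 for IUO against PNO. A replicate block changed the counts to 3 in F1 IUO against PNO, 0 for the difference between generations of PNO against SAL and 2 for that of IUO against PNO, and changed no other count. Samples with the same number did not deviate together (correlations -0.357 to 0.186 over 15 pairs of groups, and 3 of 24 libraries correlated best with their own number). Without the 2 farthest libraries 3 of 45 receptor pairs (14 before) and 6 of 90 relations with lists (15 before) passed.

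With 4 libraries a group the exact test cannot give less than 0.0286, and genes near 0 FPKM such as Chrm5 rest on few reads of unknown number.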
